A study of Mus musculus with 6 samples.

Results

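Forkhead genes encode the Fox transcription factors, which share a winged-helix DNA-binding domain. Their members were followed here in the embryonic mouse tongue after loss of the type II TGF-beta receptor gene Tgfbr2 from neural crest cells. The members were all genes with a symbol of Fox, a class letter from a to s and a number, read by probe sets that the platform annotation assigns to that symbol alone. They were 37 of 18193 genes so named, with 82 probe sets, and the brightest probe set stood for a gene.

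The forkhead genes are ordered by role: mesenchymal and vascular genes, FoxO, FoxP, broadly expressed and proliferation genes, epithelial and ciliary genes, and genes of the early embryo and nervous system. In cranial neural crest, Hedgehog ligands from the epithelium are known to sustain FoxC, FoxD and FoxF genes in the mesenchyme beneath. FoxO proteins are held out of the nucleus when insulin-like growth factors activate Akt, and they bind Smad proteins at some TGF-beta target genes. FoxM1 drives genes of mitosis, FoxA proteins open chromatin in epithelia, and Foxh1 is the Smad partner of early Nodal signalling.

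Total RNA of tongues at embryonic day 14.5 was measured on 6 Affymetrix arrays. The 3 mutants were Tgfbr2 fl/fl with Wnt1-Cre, a transgene whose recombinase acts in neural crest cells and what they form. As controls, 3 tongues were Tgfbr2 fl/fl with no Cre, and both groups were of the strain C57BL/6J. The titles call the controls Tgfbr2 wildtype instead. By the fl/fl genotype both groups carry floxed alleles. The muscle fibres and epithelium of a mutant tongue keep an intact Tgfbr2. The labels name the material tongue in one field and tongue mesenchyme in another. Markers of skeletal muscle (14 of 14) and of epithelium (12 of 12) passed the filter, as did 12 of 14 markers of cranial mesenchyme, with Msx2 and Dlx6 below it. No label ties the arrays to separate litters or embryos, so the p-values cover only variation among these 6 samples. In whole tissue, fewer cells of a type and less RNA per cell cannot be told apart.

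Values are log2 RMA signals, and a difference is the mutant mean minus the control mean on that scale. A gene passed the filter if its mean over the 6 arrays was at least 5.17, the lowest 25% of genes lying below. This left 13645 genes, of which limma called 292 (2.14%) at an adjusted p under 0.05, or 490 (3.59%) with the replicate number as a block. Mutant array 1 stood apart: it correlated with the other arrays at 0.966 to 0.978 over these genes, against 0.994 to 0.998 among controls. Without it 670 genes (4.91%) were called. Tgfbr2 itself differed by -0.18 (adjusted p = 0.642, limma). Signals of different probe sets depend on their probes, so levels are compared between arrays and not between genes.

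Of the 37 forkhead genes 29 passed the filter. None of the 29 was called between mutants and controls in the limma fit, where 2.14% of all tested genes were called. At an unadjusted p under 0.05 there were 2, Foxo1 and Foxk2, or 6.90% against 16.9% of all tested genes. In 4 genes (13.8%) the 3 mutant and the 3 control values did not overlap, as in 25.1% of all tested genes: Foxo1 and Foxq1 lay higher in the mutants, Foxk2 and Foxp1 lower. The differences ran from -0.44 to 0.40 with a median of -0.054, beside a median of 0.016 over all tested genes. The median standard error was 0.13 for the forkhead genes and 0.12 for all tested genes. Of the 29 differences 17 were negative (58.6%, against 46.6% of all tested genes). Without mutant array 1 there were 11, where 6223 of all 13645 tested genes were negative.

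**Figure D1:**
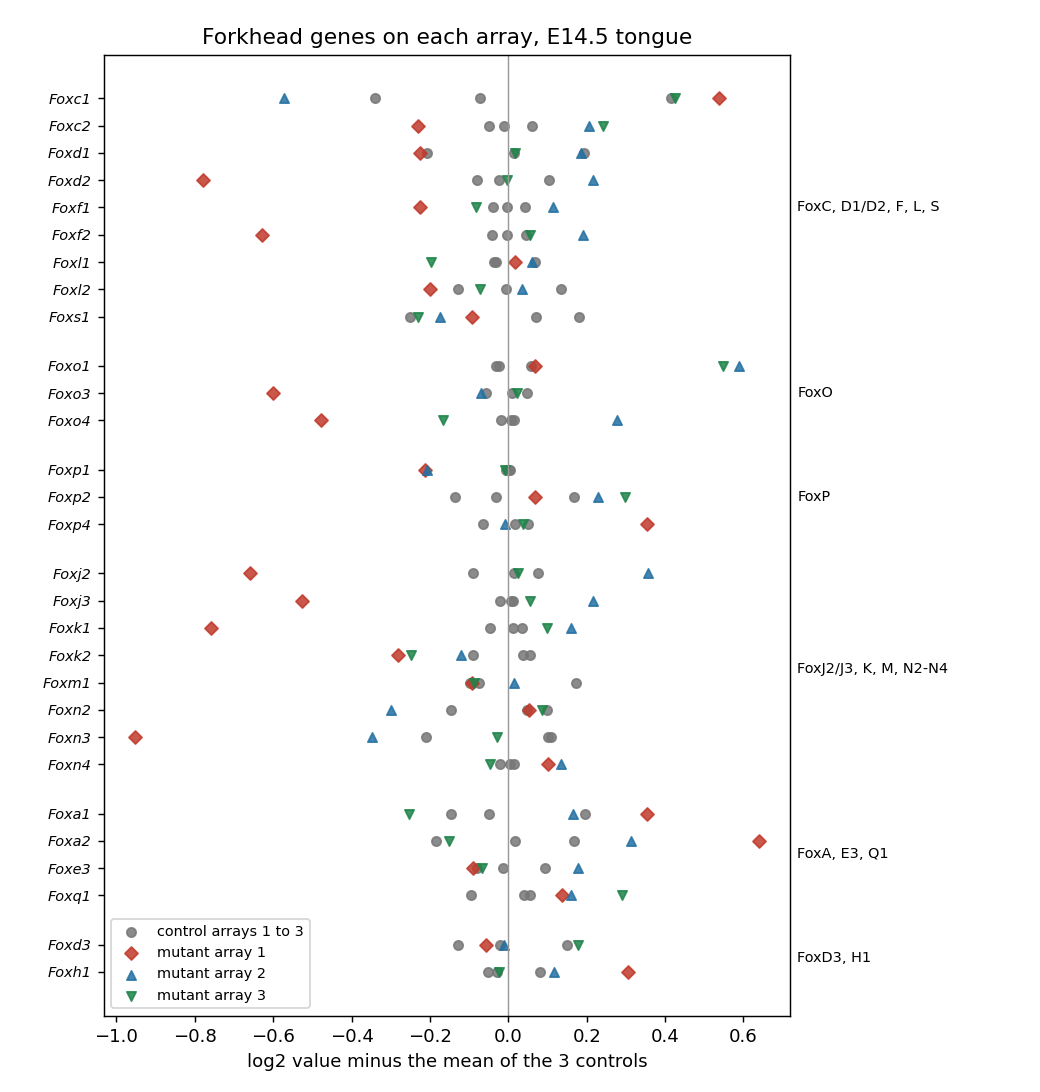
Log2 value of each of the 29 tested forkhead genes on every array, minus the mean of the 3 controls, in the 6 groups by role. Grey circles are controls and coloured symbols the mutants; mutant array 1 holds the lowest point in 15 genes.

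The spread among mutants came largely from 1 array. Mutant array 1 held the lowest of the 6 values in 15 of the 29 genes (51.7%), as it did in 32.6% of all tested genes. Mutant array 2 held the highest value in 10 (34.5%, against 23.4% of all tested genes). Relative to each gene's control mean, the forkhead median was -0.093 in mutant array 1, 0.13 in mutant array 2 and -0.0030 in mutant array 3. The mean of the 14 endothelial markers was also lowest in mutant array 1, at 6.89 against 7.44 to 7.61 in the other 5 arrays. So were the means of skeletal muscle (10.77 against 11.17 to 11.76) and neural crest mesenchyme markers (8.26 against 8.34 to 8.55). Those of pericyte and smooth muscle and of cartilage markers were lowest there too. The Schwann cell and neuron, immune, red cell and fat means were not. The mean of the 12 epithelial markers was highest in mutant array 1, at 11.11 against 9.90 to 10.56. The part of these markers in the forkhead values was not tested.

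The forkhead genes of mesenchyme and vessels, several of them known from the cranial mesenchyme that neural crest forms, showed no called difference. All 9 measured genes of this group passed the filter, 7 differences were negative and 2 positive, and none was outside -0.19 to 0.13. Foxd1, a gene of cranial mesenchyme and kidney stroma, gave 11.03, 11.44 and 11.27 in mutant arrays 1 to 3 and 11.45, 11.27 and 11.05 in the controls. Its groups overlapped fully, with a difference of -0.0072 (95% interval -0.35 to 0.33, adjusted p = 0.984, limma).

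Foxf1 and Foxf2 encode factors of the mesenchyme that faces epithelia, and Foxf2 is needed for closure of the palate. Foxf1 was 9.38, 9.72 and 9.53 in the mutants and 9.65, 9.57 and 9.61 in the controls, so that the mutants lay on both sides of the controls. Foxf2 was 8.27, 9.09 and 8.95 in the mutants and 8.94, 8.89 and 8.85 in the controls. In Foxf2 only mutant array 1 lay below the controls, and the other mutants lay above them. The differences were -0.065 (95% interval -0.32 to 0.19) for Foxf1 and -0.13 (-0.60 to 0.35) for Foxf2. Without mutant array 1 they were 0.015 and 0.12. A dimmer Foxf1 probe set gave -0.15, or -0.14 without that array.

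Foxd2, another gene of cranial mesenchyme, had the same single low array as Foxf2. Its values were 7.14, 8.13 and 7.91 in the mutants and 8.02, 7.84 and 7.89 in the controls. The difference of -0.19 was 0.11 without mutant array 1. A dimmer Foxd2 probe set gave -0.083, or -0.019 without that array. Foxc2, a gene of vessels and skeletal mesenchyme, was 7.04, 7.48 and 7.51 in the mutants and 7.33, 7.22 and 7.26 in the controls. Here too mutant array 1 was the lowest of the 6 and the other mutants the highest, and the difference of 0.072 became 0.22 without it (adjusted p = 0.153, limma).

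Foxc1, a relative of Foxc2 needed for skull and eye mesenchyme, varied more within the groups than any other tested forkhead gene. It was 7.49, 6.38 and 7.37 in the mutants and 7.36, 6.61 and 6.88 in the controls. Both groups held high and low arrays, and the difference of 0.13 had a 95% interval of -0.61 to 0.87. Foxl1, of gut mesenchyme, Foxl2, of ovary and eyelid, and Foxs1, of pericytes, were dim, with means of 5.24, 5.95 and 5.28, and differed by -0.040, -0.079 and -0.17.

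Several of these genes are neighbours in the RefSeq table of the assembly GRCm38.p6. Foxq1, Foxf2 and Foxc1 lie side by side on chromosome 13 with 0 protein-coding genes between them, and their differences were 0.20, -0.13 and 0.13. On chromosome 8, Foxc2 and Foxl1 are adjacent and 1 protein-coding gene separates Foxf1 from Foxc2. These 3 differed by 0.072, -0.040 and -0.065 in that order. The signs differed within each cluster, but none of these differences was called. Those of Foxf2, Foxc1 and Foxf1 changed sign without mutant array 1. Whether a cluster moved together was not tested.

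**Figure D2:**
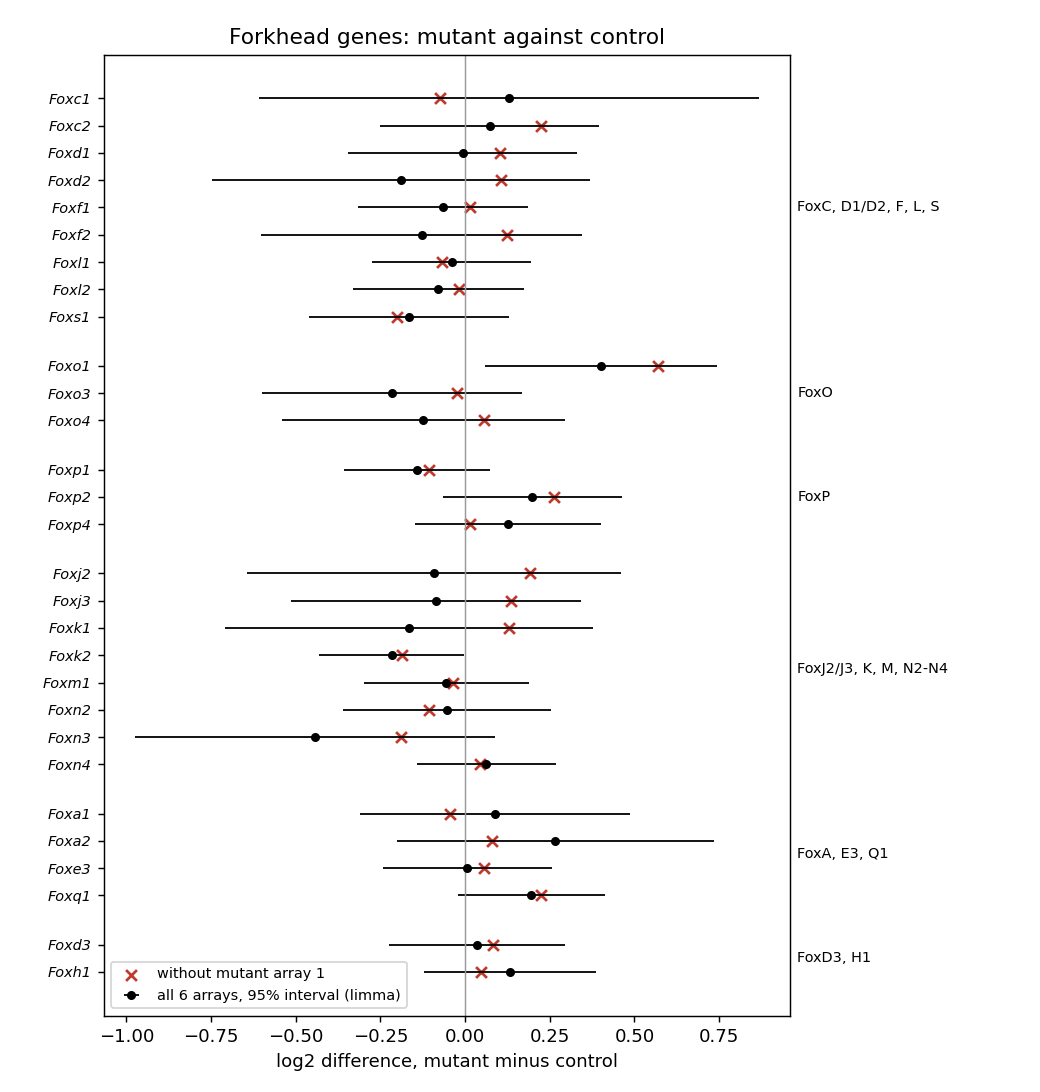
Log2 difference, mutant minus control, of the 29 tested forkhead genes with its 95% interval from limma (black) and the same difference without mutant array 1 (red crosses). The intervals of Foxo1 and Foxk2 leave out 0, before adjustment for the number of genes tested.

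The Hedgehog pathway, known to sustain several of these genes, gave no call in 15 tested genes, where 2.14% of all tested genes were called. Of the 15 differences 9 were negative and 6 positive, with a median of -0.0051. Dhh, encoding the ligand made by Schwann cells, came nearest, at 7.14 ± 0.29 in the mutants and 6.42 ± 0.018 in the controls (SD, n = 3 each). Its difference of 0.72 had an adjusted p of 0.0594 in limma, 0.0436 with the replicate block and 0.0221 without mutant array 1. The 11 Schwann cell and neuron markers were mostly higher too, 8 of 11 positive. Their array means were 8.02 to 8.61 in the mutants and 7.94 to 8.13 in the controls. Of the 11, Stmn2 alone was called (1.07, adjusted p = 0.0272, limma), where 2.14% of all tested genes were called. Dcx was 1 of 3 negative markers, at -1.34. Its adjusted p was 0.0736 in limma, 0.00887 with the replicate block and 0.0291 without mutant array 1. With the block 2 of the 11 were called higher (Stmn2 and Nefl) and 1 lower (Dcx), where 3.59% of all tested genes were called. Without mutant array 1, 5 were called higher and 1 lower (Dcx), where 4.91% of all tested genes were called. The part of these markers in the Dhh value was not tested.

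Genes that report Hedgehog activity split between the arrays. Gli1, a transcription factor gene induced by the pathway, was 7.70, 8.41 and 8.21 in the mutants and 7.61, 7.80 and 7.82 in the controls. Its difference of 0.36 (adjusted p = 0.363, limma) was 0.57 without mutant array 1 (adjusted p = 0.0291). Hhip, encoding a decoy receptor that the pathway also induces, was 0.66 higher on average (adjusted p = 0.426) and 1.13 without that array (adjusted p = 0.0123). Without mutant array 1, Dhh, Gli1 and Hhip were the 3 of 15 Hedgehog genes called, all of them higher, where 4.91% of all tested genes were called. The median of the 15 differences was then 0.11. Ptch1, the receptor gene, differed by -0.0051 with all arrays and by 0.24 without mutant array 1 (adjusted p = 0.276, limma). The Hedgehog ligand of epithelium, Shh, differed by 0.66 with all arrays (adjusted p = 0.339). Without mutant array 1 it differed by 0.33 (adjusted p = 0.455). Gas1, a coreceptor gene, was lower on all 3 mutant arrays, with a difference of -0.33 (adjusted p = 0.142).

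The FoxO genes differed from each other, and Foxo1 came nearest to a call of all forkhead genes. Foxo1 was 8.87, 9.39 and 9.35 in the mutants and 8.78, 8.77 and 8.86 in the controls. All 3 mutants lay above the controls, mutant array 1 by very little. The difference was 0.40 (standard error 0.15, 95% interval 0.058 to 0.75, adjusted p = 0.232, limma), a 1.32-fold higher mean. Without mutant array 1 it was 0.57 and passed (adjusted p = 0.0106), the only forkhead gene that did in a fit with 670 genes (4.91%) called.

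The other Foxo1 probe sets above the filter gave the same sign with smaller differences. They read 0.26 and 0.14 with all arrays, and 0.44 and 0.27 without mutant array 1. Both had mutant array 1 below the controls, and both had mutant arrays 2 and 3 above or among them. Endothelial cells express Foxo1, and 11 of their 14 markers had negative differences, with array means of 6.89 to 7.49 in the mutants and 7.48 to 7.61 in the controls. Their median of -0.26 was -0.032 without mutant array 1, the setting in which Foxo1 was called. All 14 passed the filter. Their part in the Foxo1 values was not tested.

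Foxo3 was 9.81, 10.34 and 10.43 in the mutants and 10.35, 10.42 and 10.46 in the controls. Mutant array 1 lay far below the others, and without it the difference of -0.22 became -0.024. Foxo4 was also lowest in mutant array 1, at 7.54 against 8.29 and 7.85 in the other mutants. Its controls lay at 7.99 to 8.03, and the difference was -0.12. A dimmer Foxo4 probe set gave -0.24, or -0.26 without mutant array 1, and was lowest in mutant array 2. Foxo1 was thus the one FoxO gene with its 3 mutant values on 1 side. Whether the Foxo1 difference exceeds those of Foxo3 and Foxo4 was not tested.

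Of 28 tested FoxO target genes 2 were called higher and none lower, where 1.32% of all tested genes were called higher and 0.821% lower. Without mutant array 1 there were 4, with Cdkn1a and Sesn3 added, where 4.91% of all tested genes were called. The 2 were Igfbp1, encoding an insulin-like growth factor binding protein, and Bbc3, encoding the pro-apoptotic protein Puma, which p53 also induces. Igfbp1 was 8.21, 8.31 and 8.06 in the mutants and 6.60, 4.81 and 5.17 in the controls. The control values spread widely and 2 of them lay under the filter value, where RMA compresses differences. The difference was 2.67 (standard error 0.41, adjusted p = 0.0262, limma). Bbc3 was 8.15, 8.11 and 8.28 in the mutants and 7.63, 7.62 and 7.63 in the controls. Its difference was 0.56 (standard error 0.086, adjusted p = 0.0264). When 1 array was left out, Igfbp1 lost the call without mutant array 2 or 3 or control array 2 or 3 (differences from 2.31 to 3.20 over the 6 fits). Bbc3 kept it only without mutant array 1 (0.51 to 0.59 over the 6 fits) and lost it with sex as a covariate (adjusted p = 0.0744).

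Over the whole list of FoxO targets 6 differences were negative and 22 positive, where 46.6% of all tested genes were negative. The median stood at 0.14 beside 0.016 for all tested genes, and at 0.21 once mutant array 1 was left out. The groups did not overlap in 13 of the 28, 11 of them higher in the mutants, where 25.1% of all tested genes did not overlap. Next in p after the called genes were Gabarapl1, an autophagy gene (difference 0.48, adjusted p = 0.0884), and Bnip3, a mitophagy gene that hypoxia also induces (0.61, adjusted p = 0.124). G6pc, Pck1, Tnfsf10 and Fasl were below the filter. Other FoxO targets stayed close to the controls: Fbxo32, the muscle ubiquitin ligase gene atrogin-1, differed by 0.029 and Cdkn1b, encoding the cell cycle inhibitor p27, by 0.074.

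Promoter windows are shown for the called FoxO targets and for the uncalled targets with the forkhead core before the start. The windows searched ran from 250 bases before to 50 bases after a transcript start in RefSeq (GRCm38.p6), on both strands. The motifs were TGTTTAC, the forkhead core, and TGTTTTG, the core of the insulin response element, which share their opening letters TGTTT. With TGTTTAC, Bbc3 had a match and Igfbp1 had none. TGTTTTG was added after Igfbp1 was seen to be called, so its match there was fixed by that choice. The sequences run 5′ to 3′ along the gene's strand, with the motif in capitals, in its reverse form where it reads on the other strand.
Igfbp1, chr11:7197639-7197725, plus strand: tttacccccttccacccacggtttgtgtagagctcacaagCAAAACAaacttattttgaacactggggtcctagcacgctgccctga
Bbc3, chr7:16310054-16310140, plus strand: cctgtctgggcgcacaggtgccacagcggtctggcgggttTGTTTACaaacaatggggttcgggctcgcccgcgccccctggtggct
Trim63, chr4:134314886-134314972, plus strand: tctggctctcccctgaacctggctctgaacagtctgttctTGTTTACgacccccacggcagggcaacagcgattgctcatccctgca
Txnip, chr3:96557796-96557882, plus strand: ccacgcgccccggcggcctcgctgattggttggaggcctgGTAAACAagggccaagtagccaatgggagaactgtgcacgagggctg
Bcl2l11, chr2:128125788-128125857, plus strand: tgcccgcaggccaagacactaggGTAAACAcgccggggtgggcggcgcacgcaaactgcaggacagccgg

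The motif begins 108 bases before the start in Igfbp1 and 167 bases before it in Bbc3, where the start is an internal one, 1863 bases into the gene. In Trim63, encoding the muscle ubiquitin ligase MuRF1, it begins 194 bases before the start. That gene differed by -0.14 with all mutants below the controls (adjusted p = 0.485). In Txnip, encoding an inhibitor of thioredoxin, it begins 121 bases before the start, and the gene differed by 0.30 (adjusted p = 0.313, limma). In Bcl2l11, encoding the pro-apoptotic protein Bim, it begins 227 bases before it, and the difference was 0.12 (adjusted p = 0.620). Of the other uncalled targets with a match, Sesn1 (TGTTTAC after the start) differed by 0.18, and Ccng2 and Irs2 (TGTTTTG) by 0.25 and -0.20, while G6pc (TGTTTTG) was below the filter. TGTTTAC was found in 5 of 36 windows of FoxO targets (13.9%) and in 3.65% of all 32851 windows. TGTTTTG was in 4 of the 36 (11.1%), that of Igfbp1 included, and in 6.28% of all windows. A match is a match of letters and shows no binding.

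Control of FoxO by insulin signalling gave no call (0 of 21 tested genes), where 2.14% of all tested genes were called. Of the 21 differences 17 were negative and 4 positive, where 46.6% of all tested genes were negative. Their median was -0.11, or -0.012 once mutant array 1 was left out. Skp2, encoding the ubiquitin ligase subunit that degrades Foxo1 and p27, was 11.04, 11.32 and 11.59 in the mutants and 12.05, 12.05 and 11.85 in the controls. All mutants lay below all controls. The difference of -0.67 had an adjusted p of 0.0777 in limma and was -0.53 without mutant array 1 (adjusted p = 0.0462). Sgk1, a kinase gene of this pathway, differed by -0.40 (adjusted p = 0.224, limma) and Usp7 by -0.36 (0.254). Akt1 differed by -0.076 (0.718) and Pdpk1, encoding the kinase that activates Akt, by -0.077 (0.754). Pdk1, one of the 4 positive genes, differed by 0.41 (0.212); it encodes a pyruvate dehydrogenase kinase and no insulin signalling kinase.

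FoxP genes encode repressors, and Foxp1, Foxp2 and Foxp4 passed the filter. Foxp1, which acts in muscle, heart and lung, was 10.68, 10.69 and 10.89 in the mutants and 10.90, 10.89 and 10.89 in the controls. The controls lay within 0.010 of each other, and mutant array 3 lay just below them. The difference was -0.14 (adjusted p = 0.476, limma). The other 5 probe sets of Foxp1 above the filter gave -0.39, -0.36, -0.33, -0.20 and 0.033. In the first 3 of these the mutants also lay wholly below the controls, and none passed in the fit over all probe sets (adjusted p from 0.148 to 0.275, limma). The 14 skeletal muscle markers lay lower as well, 13 of them negative. None was called in the limma fit. With the replicate block 5 were called lower (Acta1, Tnnt3, Myh8, Des and Ttn), where 3.59% of all tested genes were called. The markers had array means of 10.77 to 11.40 in the mutants and 11.34 to 11.76 in the controls. Their part in the Foxp1 values was not tested.

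Foxp2, expressed in brain and in several embryonic organs, was 9.12, 9.28 and 9.35 in the mutants and 9.22, 8.92 and 9.02 in the controls. The groups overlapped through control array 1, and the difference was 0.20 (95% interval -0.067 to 0.46). Of its other 4 probe sets above the filter, all differences were positive, from 0.019 to 0.31. Foxp4 differed by 0.13 with its brightest probe set and by 0.079 and -0.23 with the others. Foxp3, the gene of regulatory T cells, lay below the filter on all arrays.

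**Figure D3:**
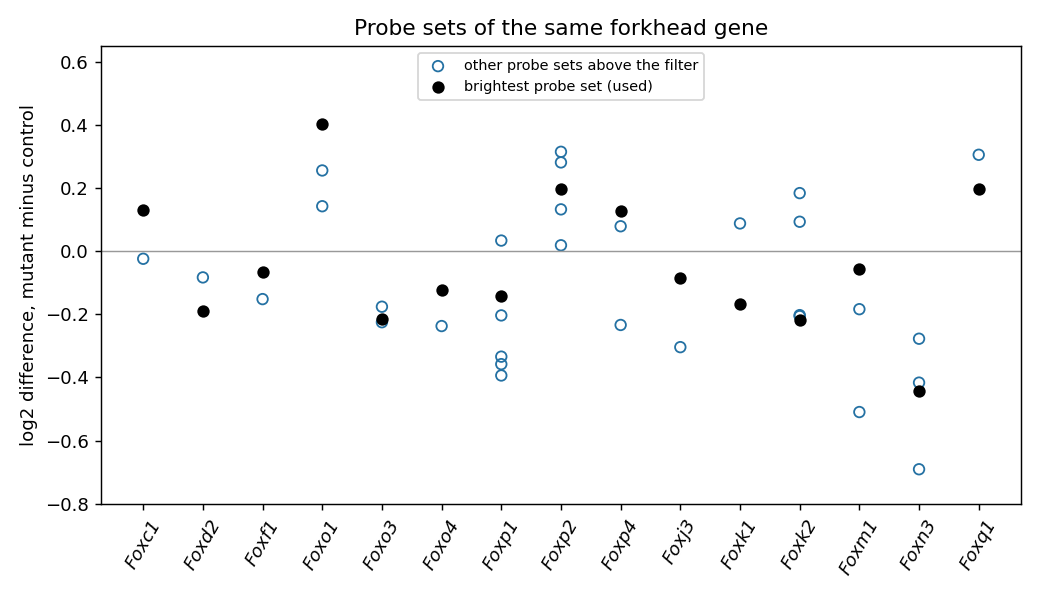
Log2 difference, mutant minus control, of each probe set above the filter for the 15 forkhead genes with more than 1 such probe set. Filled points are the brightest probe sets and open circles the others; of the 31 others 25 share the sign of the brightest.

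Among the broadly expressed forkhead genes 7 of 8 differences were negative. Foxk2, encoding a ubiquitous regulator of metabolic genes, was 9.24, 9.40 and 9.27 in the mutants and 9.56, 9.43 and 9.58 in the controls. All mutants lay below the controls, mutant array 2 only just, and the difference was -0.22 (95% interval -0.43 to -0.0023, adjusted p = 0.291, limma). Both next brightest probe sets of Foxk2 gave -0.21 and -0.20, again without overlap, while the dim pair gave 0.093 and 0.18.

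Foxk1, which acts in muscle progenitors, showed 1 low array, as did Foxj2 and Foxj3. Foxk1 was 8.04 in mutant array 1 and 8.75 to 8.96 in the other 5 arrays. Foxj2 was 7.82 there and 8.39 to 8.83 elsewhere, and Foxj3 was 9.60 there and 10.11 to 10.34 elsewhere. The differences of Foxk1, Foxj2 and Foxj3 were -0.17, -0.093 and -0.085 with all arrays and 0.13, 0.19 and 0.14 without mutant array 1. A dimmer Foxj3 probe set above the filter gave -0.30, or -0.19 without that array. For Foxk1 such a probe set gave 0.088, or 0.11 without it.

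Foxn3, encoding a checkpoint repressor, had the largest negative difference of the tested forkhead genes. It was 9.46, 10.06 and 10.38 in the mutants and 10.20, 10.51 and 10.52 in the controls. Mutant array 3 overlapped the controls, and the difference was -0.44 (95% interval -0.97 to 0.088, adjusted p = 0.378, limma). Its other 3 probe sets gave -0.28, -0.69 and -0.42, so all 4 were negative. Without mutant array 1 the 4 ranged from -0.51 to -0.050, with -0.19 for the brightest. Foxn2 and Foxn4, the latter a gene of retina and spinal cord, differed by -0.054 and 0.063.

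Foxm1, the mitotic forkhead gene, was 6.98, 7.09 and 6.99 in the mutants and 6.97, 7.24 and 6.998 in the controls on its brightest probe set. These groups overlapped, with a difference of -0.055 (adjusted p = 0.821, limma). A dimmer probe set gave 6.08, 6.21 and 6.35 in the mutants and 6.66, 6.57 and 6.94 in the controls. There all mutants lay below the controls, by -0.51 on average (adjusted p = 0.127, limma over all probe sets). A further probe set gave -0.18, so the reading of Foxm1 differed between its probe sets.

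The targets of FoxM1 leaned the same way without a call. Of 25 tested genes 24 differences were negative, against 46.6% of all tested genes. The median was -0.21 (-0.19 without mutant array 1). None passed in limma, where 2.14% of all tested genes did. The groups did not overlap in 11, all of them lower in the mutants, against 25.1% of all tested genes in either direction and 11.5% in this direction. Besides Skp2, which is in this list too, those with the smallest p were Ccna2, encoding cyclin A2 (difference -0.42, adjusted p = 0.119), Plk1, encoding a mitotic kinase (-0.52, adjusted p = 0.124), and Top2a, encoding a topoisomerase of dividing cells (-0.48, adjusted p = 0.154). Without mutant array 1 Skp2 alone of the 25 was called, a share near the 4.91% of all tested genes in that fit.

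**Figure D4:**
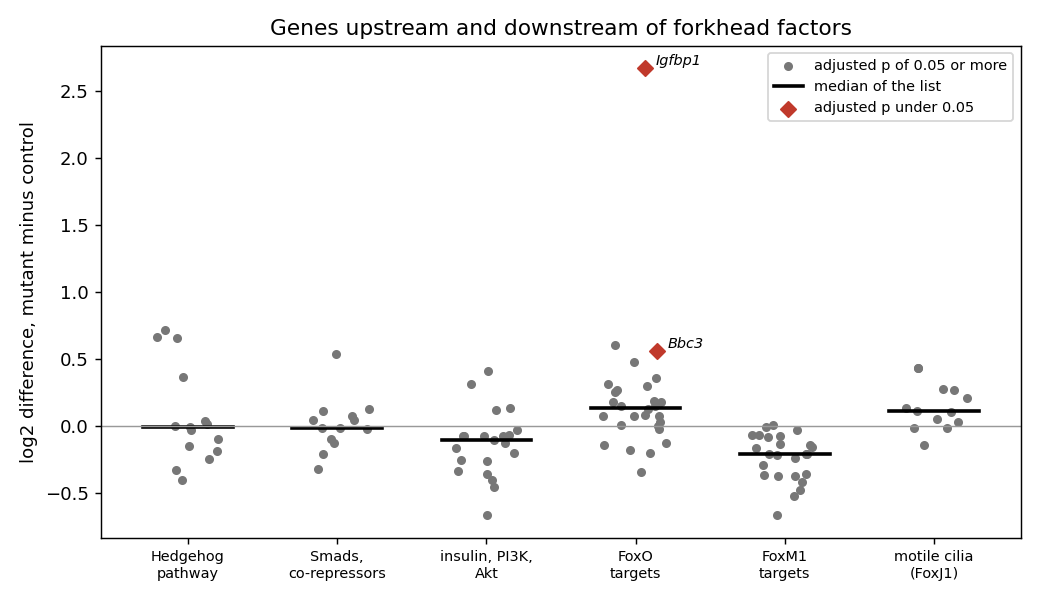
Log2 difference, mutant minus control, of every tested gene in 6 lists of genes that act upstream or downstream of forkhead factors; bars are list medians and diamonds genes with an adjusted p under 0.05 (limma, 6 arrays). Igfbp1 and Bbc3 are the 2 called genes. Skp2 stands in both the insulin and the FoxM1 lists, and Irs2 in both the insulin and the FoxO target lists.

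The epithelial forkhead genes that passed the filter, Foxa1, Foxa2, Foxe3 and Foxq1, were all positive and none was called. Foxa2, a pioneer factor gene of endoderm, was 10.21, 9.88 and 9.42 in the mutants and 9.73, 9.59 and 9.38 in the controls. The groups overlapped, and the difference of 0.27 fell to 0.080 without mutant array 1. Foxa1, its relative, was 10.53, 10.34 and 9.92 in the mutants and 10.37, 10.03 and 10.13 in the controls, a difference of 0.088 that was -0.044 without mutant array 1.

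Foxq1, a gene of hair and gut epithelium, was 7.25, 7.27 and 7.40 in the mutants and 7.16, 7.01 and 7.15 in the controls. All mutants lay above all controls, and the difference was 0.20 (95% interval -0.020 to 0.41, adjusted p = 0.339, limma). A dimmer probe set gave 0.31 without overlap. Foxe3, a lens gene, was dim and differed by 0.0067.

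The epithelial markers were higher beside these genes. All 12 differences were positive, with a median of 0.64 (0.44 without mutant array 1), and 10 of the 12 lay higher in the mutants without overlap, as did 13.6% of all tested genes. None was called in the main fit. With the replicate block 3 were called higher (Krt14, Epcam and Sox2), where 3.59% of all tested genes were called. Without mutant array 1, 2 were called higher (Krt14 and Krt15), where 4.91% of all tested genes were called. Their array means were 10.25 to 11.11 in the mutants and 9.90 to 10.12 in the controls, and no marker lay below the filter. The part of the epithelial share in the FoxA and Foxq1 values was not tested.

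TGTTTAC was in 1 of 29 windows of 24 forkhead genes (3.45%, against 3.65% of all windows), that of Foxa1, 141 bases before an internal start that lies 1918 bases into the gene. TGTTTTG was in 1 of the 29 (3.45%, against 6.28%), that of Foxd2, 38 bases before the start. Both are shown along the gene's strand, with the reverse form of the motif in capitals.
Foxa1, chr12:57546206-57546292, minus strand: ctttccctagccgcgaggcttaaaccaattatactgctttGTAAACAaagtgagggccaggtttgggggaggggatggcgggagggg
Foxd2, chr4:114908899-114908976, minus strand: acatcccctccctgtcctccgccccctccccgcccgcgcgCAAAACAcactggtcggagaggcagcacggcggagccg

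The palindromic Smad element GTCTAGAC and the Gli site TGGGTGGTC were in 0 of the 29 forkhead windows, and in 0.213% and 0.253% of all windows. No match says only that these letters are not in the windows searched.

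Foxd3 and Foxh1 were the tested genes of the early embryo and nervous system. Foxd3, a gene of early neural crest and Schwann cell precursors, was 7.42, 7.46 and 7.65 in the mutants and 7.35, 7.45 and 7.62 in the controls. The values of both groups ran over the same range, with a difference of 0.036 (95% interval -0.22 to 0.30). Foxh1 was dim and differed by 0.13, mostly through mutant array 1 at 6.61 against 6.25 to 6.42 elsewhere.

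Genes of Smads and of corepressors that forkhead proteins bind gave no call in 13 tested genes, where 2.14% of all tested genes were called. Of the 13 differences 7 were negative and 6 positive, with a median of -0.017. Smad2, the partner of Foxh1, differed by -0.32 (adjusted p = 0.501, limma), and by 0.22 when its probe sets were averaged. Smad4, the shared partner, differed by 0.045 and Smad3 by -0.017. Smad6, an inhibitory Smad gene, was 8.31 ± 0.26 in the mutants and 7.77 ± 0.13 in the controls (SD, n = 3 each), with no overlap and an adjusted p of 0.124. Smad5 was lower on all 3 mutant arrays, with a difference of -0.21 (adjusted p = 0.372, limma). Ctbp1, encoding a corepressor of FoxP proteins, differed by -0.13 (adjusted p = 0.506).

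The 8 forkhead genes below the filter were Foxa3, Foxb1, Foxb2, Foxd4, Foxi1, Foxj1, Foxn1 and Foxp3. They act in liver, brain, ionocytes, ciliated cells, thymus and regulatory T cells among others. Their means over the 6 arrays ran from 3.88 for Foxi1 to 5.05 for Foxb1, just under the filter value, while Foxl1 at 5.24 lay just above it. None was tested, and their differences ran from -0.34 for Foxd4 to 0.26 for Foxb1. Foxj1, the regulator of motile cilia, was between 4.43 and 4.53 on all 6 arrays. Of 24 measured genes of motile cilia 11 lay below the filter, Foxj1 among them. None of the 13 tested was called, where 2.14% of all tested genes were. Of the 13 differences 10 were positive, with a median of 0.11. The mutants lay above the controls without overlap in 5, against 13.6% of all tested genes, and below them in 0, against 11.5%. Smallest in p were Rsph9 (0.43, adjusted p = 0.161, limma), Tekt2 (0.43, 0.173), Dnah11 (0.27, 0.232) and Rfx3 (0.21, 0.260).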

How the data were processed

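The authors deposited 1 table of log2 expression values, made with RMA, a method that corrects background, equalizes array distributions and summarizes each probe set; the submitters' processing notes name it without a version. Differences of dim probe sets are compressed by RMA, and its equalizing step hides a change shared by most genes. Arrays have no read depth; their number limits the precision. Of 45101 probe sets, 34945 had 1 symbol in the platform annotation, and 2 that name a forkhead gene beside others were left out. The test was limma's (version 3.58.1, under R 4.3.3; lmFit then eBayes, 2-sided), with Benjamini-Hochberg adjustment over 13645 genes and a threshold of 0.05, checked on simulated data. Each group has array numbers from 1 to 3 in its titles, and the labels do not say what a number stands for. Deviations of the arrays from the group means correlated between arrays of one number at 0.309, 0.105 and 0.206. These passed a rule set at 0.1 for counting them as pairs. No such value is given for arrays of different numbers, so a pairing is not shown. The main fit has no block, and the block is given where it changes a stated call. The forkhead genes, lists and tests were chosen with earlier results of these data known. Forkhead genes without overlap, with bright signals or wide spread are given array by array. Of each upstream, partner or target list up to 4 genes with the smallest p and all called genes are given. Marker lists are given mainly as counts and array means. Other genes named were chosen after their values were seen. The alternatives were the filter, probe set choice, scaling, variance model, block, sex as a covariate (read from Xist and Y-linked genes), and each array left out. Promoter windows are RefSeq's (GRCm38.p6). Figures were drawn with matplotlib 3.10.9.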

Additional observations from a re-analysis of the deposited data

How the results depend on the processing

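No forkhead gene was called in 16 of 18 settings. With array quality weights, which gave mutant array 1 a weight of 0.16, there was 1, and leaving out 1 array gave 0 to 1; both calls were Foxo1 (0.53 with weights, adjusted p = 0.0118, and 0.57 without mutant array 1, adjusted p = 0.0106). The count over all tested genes was 292, against 151 with the lowest 50% left out, 1034 with array quality weights, 490 with the replicate block, 135 with sex as a covariate, 549 at an adjusted p under 0.1 and 16 to 670 with 1 array left out. The cause was not tested. With arrays centred on their median 149 of 281 calls were higher in the mutants. The replicate block changed no forkhead call.

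Small uncalled differences changed sign. With array quality weights Foxd1, Foxd2, Foxf1, Foxf2, Foxj2, Foxj3, Foxk1 and Foxo4 gave 0.12, 0.075, 0.011, 0.077, 0.10, 0.085, 0.046 and 0.017. Foxd1 gave 0.011 with quantile normalization. Foxe3 gave -0.029 with centred arrays and -0.036 with quantile normalization. As means of probe sets Foxn2, Foxp4 and Smad2 gave 0.0077, -0.0093 and 0.22. With sex as a covariate Foxc1 and Foxj2 gave -0.15 and 0.042.

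With 1 array left out the ranges that crossed 0 were as follows. Foxa1 ran from -0.044 to 0.26, Foxc1 from -0.073 to 0.48 and Foxc2 from -0.012 to 0.22. Foxd1 ran from -0.11 to 0.10, Foxd2 from -0.39 to 0.11 and Foxd3 from -0.034 to 0.11. Foxe3 ran from -0.079 to 0.055, Foxf1 from -0.15 to 0.015 and Foxf2 from -0.29 to 0.12. Foxj2 ran from -0.32 to 0.19, Foxj3 from -0.24 to 0.14 and Foxk1 from -0.33 to 0.13. Foxl1 ran from -0.090 to 0.039, Foxm1 from -0.10 to 0.031 and Foxn2 from -0.13 to 0.069. Foxo4 ran from -0.32 to 0.055 and Tgfbr2 from -0.30 to 0.014. With 3 arrays a group, differences of the size seen in most forkhead genes lay within the 95% interval of 0.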

Other observations

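Foxc1 was high on the same 3 arrays as Xist, which marks an inactivated X chromosome. Xist was 12.57, 6.14 and 13.17 in mutant arrays 1 to 3 and 11.74, 6.43 and 6.20 in control arrays 1 to 3, and Foxc1 was 7.49, 6.38 and 7.37 in the mutants and 7.36, 6.61 and 6.88 in the controls. A second Foxc1 probe set put the same 3 arrays highest. Foxe3 and Foxm1, by their brightest probe sets, were instead lowest on these arrays. Foxe3 was 5.57, 5.84 and 5.59 in the mutants and 5.58, 5.75 and 5.65 in the controls. Foxm1 was 6.98, 7.09 and 6.99 in the mutants and 6.97, 7.24 and 6.998 in the controls. The share of all tested genes that split by these arrays is not given, so no link of Foxc1 with sex is shown. The split was looked at after the values were seen, and it is given as a description without a test.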
